A study of Mus musculus with 61 samples.

Results

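Blastocysts from mothers lacking *Zfp708* were compared with wild-type (WT) blastocysts by RNA sequencing. The comparison rested on 6 libraries of the 61 in the series, 3 WT and 3 maternal knockout (KO), each made from a pool of 10 embryos collected at embryonic day 3.5. Of the 18396 genes in the table, 11295 had a normalised read count of at least 1 in at least 3 of the 6 libraries and were tested. KO blastocysts are labelled maternal null: the egg came from a female carrying a frame-shifting CRISPR/Cas9 deletion in the KRAB region of *Zfp708*, from a single founder line, while the paternal allele was wild type. The same study also sequenced single germinal vesicle (GV) oocytes, zygotes and 2-cell embryos, and mouse embryonic stem cells (mESCs) derived from blastocysts, for which the KO lines are maternal/zygotic null. The question was whether the absence of maternal ZFP708 leaves a mark on transcription at the blastocyst stage.

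ZFP708 is a Krüppel-associated box zinc-finger protein (KRAB-ZFP). Proteins of this family bind DNA, often within retrotransposons, through their zinc fingers and recruit TRIM28, which brings the H3K9 methyltransferase SETDB1, HP1 proteins and DNA methyltransferases to silence the bound element. The blastocyst is the first stage with separated lineages: an outer trophectoderm that pumps fluid into the cavity and founds the placenta, and an inner cell mass that divides into epiblast, the source of the embryo proper, and primitive endoderm.

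The 6 libraries held 12469548 to 17263228 reads in genes, with 1 read worth 0.0529 to 0.0728 normalised counts. Neither the number of litters nor the number of mothers behind the pools is given, so p-values measure the spread between these pools. KO library 3 stood apart by RNA of blood and fibroblast genes. *Hbb-b1*, an adult beta-globin gene, was at 57.9 in KO library 3 and 13.3 in WT library 3, and at 0 in the remaining 4 libraries. *Dcn*, a fibroblast proteoglycan gene, was at 15.8 in KO library 3 and at most 0.543 elsewhere. Summed over 12 blood markers, levels were 16.7, 16.5 and 35.3 in WT and 61.1, 15.2 and 194.5 in KO pools; over 14 fibroblast markers they were 1.77 to 3.5 in 5 pools and 29.6 in KO library 3. *Prrx1* was at 0 in all 6 libraries, *Lum* was at 0 in all but KO library 3, and *Ptprc*, the pan-leukocyte marker, was at 0 in all WT pools. KO library 1 shared the macrophage gene *Lyz2* with KO library 3 (39.5 and 75.2, against at most 0.664 in the remaining pools). The part of these cells in the results below was not tested beyond values without KO library 3. Of 20 cumulus and granulosa markers 3 passed the filter and 6 were at 0 in all pools, and none of the 3 was called.

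With maternal loss of *Zfp708*, *Wdfy1* rose, the 1 gene called among the 11295 tested (0.00885%; limma on log2(value + 1), Benjamini-Hochberg adjusted p under 0.05). *Wdfy1* encodes a FYVE and WD-repeat protein of endosomes that acts as an adaptor in Toll-like receptor signalling. It lies on chromosome 1 of mm9, from 79698837 to 79772718 on the minus strand. Its normalised counts were 22.9, 25.1 and 23 in the WT pools and 63.1, 61 and 76.7 in the KO pools. Every KO pool was thus above every WT pool, with a gap wider than the spread within either group. The KO mean was 2.83 times the WT mean, 66.9 ± 8.56 against 23.7 ± 1.21 (SD, n = 3 each), and the log2 fold change was 1.46 (95% interval 1.17 to 1.74). The adjusted p was 0.0341 with limma, 0.0474 with edgeR and 2.0e-17 with DESeq2. The estimate kept its size when any single pool was left out (1.35 to 1.52), and the call was lost each time, with adjusted p from 0.0592 to 0.578 in limma. Without KO library 3 it was 1.35 (adjusted p = 0.154).

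Beyond *Wdfy1*, the next smallest adjusted p in limma was 0.656. At an unadjusted p under 0.05, limma gave 173 genes (1.53%), 68 (0.602%) with a higher and 105 (0.93%) with a lower estimate in KO pools, edgeR 166 and DESeq2 170. For 672 genes (5.95%) the pools of the groups did not overlap, with every KO pool higher in 323 (2.86%) and lower in 349 (3.09%). The typical gene differed little: the median absolute log2 fold change was 0.09, with a median standard error of 0.16. For 10389 genes (92.0%) the 95% interval of the difference lay within 2-fold in both directions, and for 7171 (63.5%) within 1.5-fold. Among the 7993 genes with a mean of at least 10, the share within 2-fold was 96.5%. In that class 44 genes had an absolute log2 fold change of 0.5 or more and 6 had 1 or more. Differences inside the interval of a gene were not excluded with 3 pools against 3.

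**Figure D1:**
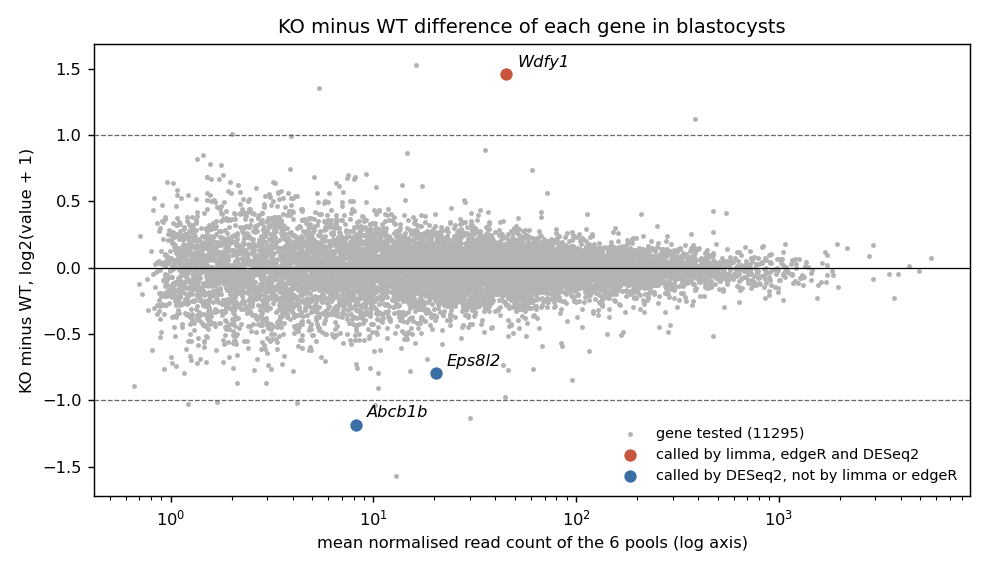
The KO minus WT difference of each of the 11295 genes tested (vertical, log2(value + 1)) against its mean normalised read count over the 6 pools (horizontal, log axis), with dashed lines at 2-fold. *Wdfy1* (1.46) stands above most genes at its level, with *Cd74* (1.53), high in KO library 3 alone, further up, and *Abcb1b* (-1.18) and *Eps8l2* (-0.80), called by DESeq2 and not by limma or edgeR, stand below most.

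DESeq2 on the recovered reads called *Abcb1b* and *Eps8l2* lower in KO pools as well (3 genes, 0.0266%). *Abcb1b*, on chromosome 5 from 8798147 to 8866314, encodes a P-glycoprotein, a membrane pump that exports drugs and lipophilic compounds. Its counts were 12.8, 10.6 and 11.9 in WT and 5.18, 4.22 and 4.47 in KO pools, so the lowest WT pool was above the highest KO pool. The log2 fold change was -1.18 (95% interval -1.57 to -0.80), and the adjusted p was 2.3e-05 with DESeq2, 0.656 with limma and 0.652 with edgeR. *Eps8l2*, on chromosome 7 from 148524779 to 148548919, encodes an actin regulator related to the EGF receptor substrate EPS8. It had 24.8, 31.3 and 22.2 in WT and 14.8, 14.3 and 14.2 in KO pools, again without overlap. Its log2 fold change was -0.80 (-1.15 to -0.44), with an adjusted p of 0.0486 with DESeq2 and above 0.99 with limma and edgeR. Without KO library 3 the limma estimates were -1.16 for *Abcb1b* and -0.79 for *Eps8l2*.

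The remaining genes with the smallest p, a mean of at least 10 and a log2 difference of at least 0.5 did not pass the threshold. Those with higher estimates in KO pools were led by *P2rx3*, an ATP-gated cation channel gene, with 11.7, 14 and 15.2 in WT and 20.3, 23 and 20.7 in KO pools (log2 fold change 0.61). *Adgrl2*, which encodes the adhesion receptor latrophilin 2, had an estimate of 0.61, *Ppwd1*, a spliceosomal cyclophilin gene, 0.51 and the X-linked *4930550L24Rik* 0.88. The last owed much to KO library 3, at 71.8 against 34.3 and 33.8 in the other KO pools. Among those with lower estimates were 2 genes expressed in trophectoderm. *Krt7*, a simple-epithelial keratin gene, had 103, 53.9 and 78.4 in WT and 48.1, 50.2 and 35.6 in KO pools (-0.77). *Ly6a*, which encodes the GPI-anchored surface protein SCA-1, had 176, 192 and 136 in WT and 105, 124 and 122 in KO pools (-0.50). The small nucleolar RNA *Snora73b* (-0.80) and *Slc27a3* (-0.62), of the fatty acid transport protein family, completed the set. In each of these genes the pools of the groups did not overlap, as in 5.95% of all genes. They were chosen for a small p in the same values, which favours such separation, so it is no further support.

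**Figure D2:**
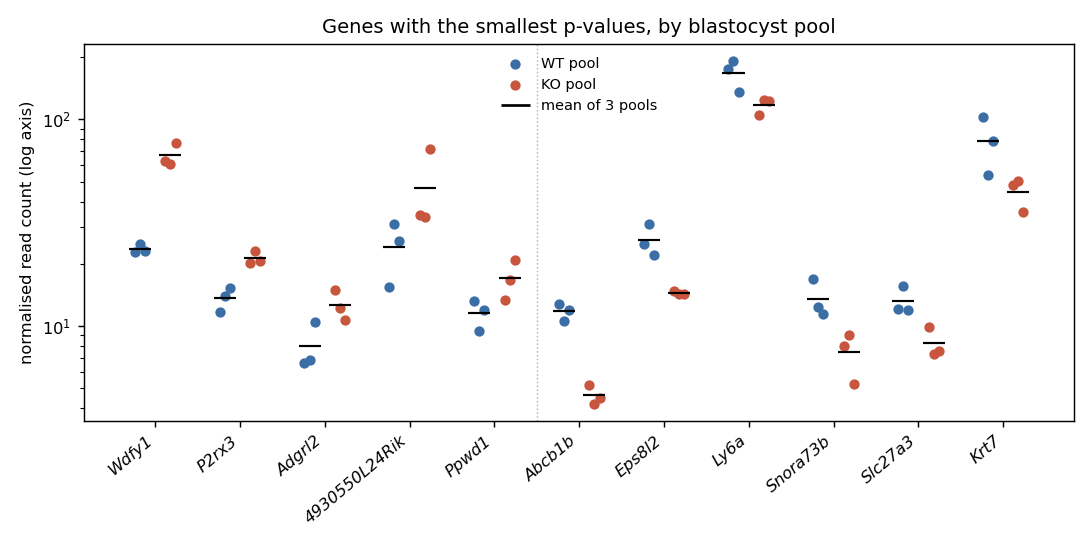
Normalised read count (log axis) of each of the 3 WT and 3 KO blastocyst pools for the genes with the smallest p-values and for *Abcb1b*, with the mean of each group as a black line. Genes left of the dotted line were higher in KO pools, and *Wdfy1* has the widest gap between groups relative to its spread.

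*Zfp708* RNA was low at this stage. Its counts were 5.90, 4.17 and 3.43 in WT and 4.55, 6.43 and 7.89 in KO pools, with overlapping groups and a log2 fold change of 0.41 (95% interval -0.18 to 0.99). The mutation shifts the reading frame and the mutant RNA is still made, so these counts do not check the genotype labels. In WT oocytes *Zfp708* RNA was at 79.7 ± 28.0 and in WT zygotes at 120 ± 41.6 (SD, n = 7 each), against 4.5 ± 1.27 (SD, n = 3) in WT blastocysts. The KO means were higher, at 97.7 ± 15.4 in oocytes and 206 ± 51.7 in zygotes (SD, n = 7 each). In 2-cell embryos the level was 138 ± 155 in KO (n = 8) and 19.9 ± 8.84 in WT (n = 7). The groups overlapped at each of these stages, and the differences were not tested. The 20 zinc-finger genes tested within 2 Mb of *Zfp708* on chromosome 13, itself included, a cluster of related KRAB-ZFP genes whose reads may in part be shared, had a median log2 fold change of 0.07, beside -0.01 over all genes tested. None of the 20 was called, beside 0.00885% of all genes tested, and none had an unadjusted p under 0.05, beside 1.53%. The most abundant were *Zfp459* (15.3 to 26.5 over the 6 pools) and *Zfp874a* (17.5 to 28.2).

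Genes of the KRAB-ZFP silencing complex were expressed in all pools and none was called, as for all genes tested but *Wdfy1*. *Trim28* had 460, 424 and 498 in WT and 543, 536 and 483 in KO pools, which overlapped (log2 fold change 0.18). The 40 genes of the TRIM28 and heterochromatin list had a median log2 fold change of 0.04, and limma, edgeR and DESeq2 called none. For 39 of them the 95% interval lay within 2-fold. *Setdb1* (0.04), the H3K9 methyltransferase of the complex, the HP1 gene *Cbx5* (0.05), the maintenance methyltransferase *Dnmt1* (-0.07) and its partner *Uhrf1* (0.15) all had overlapping pools. *Zfp445* (0.22), an imprint-protecting KRAB-ZFP gene, and *Rbbp7* (0.00), a histone-binding subunit of several chromatin complexes, did as well. *Daxx*, which encodes a histone H3.3 chaperone, had the one unadjusted p under 0.05, with 33.2, 45.5 and 27.7 in WT and 24.4, 26.9 and 25.5 in KO pools (-0.43).

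Lineage genes gave the blastocyst identity of the pools, and none of them was called, as for all genes tested but *Wdfy1*. These are bulk pools, in which fewer cells of a type and less RNA per cell cannot be told apart. Of the epiblast and pluripotency list 27 of 28 genes were tested, with a median log2 fold change of 0.07 and 19 estimates above 0. Without WT library 2 or KO library 1 the median was 0.03 and 0.02, with 14 of 27 above 0 in each case. *Pou5f1* had 316, 455 and 260 in WT and 276, 346 and 333 in KO pools (log2 fold change -0.08), and *Nanog* 162, 201 and 161 against 189, 185 and 205 (0.15). Both are core pluripotency factors, and in both the groups overlapped. *Sox2* (-0.02), *Esrrb* (-0.10) and *Klf2* (0.27) overlapped too, while *Utf1*, a chromatin-associated epiblast factor, did not (88.6, 88.2 and 82.0 against 104, 118 and 91.4). *Utf1* was the 1 of 27 genes of this list without overlap, beside 5.95% of all genes.

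Of the trophectoderm list 31 of 32 genes were tested, 4 with estimates above 0, and the median was -0.13. *Cdx2*, the master regulator of the lineage, had 237, 209 and 185 in WT and 233, 175 and 166 in KO pools (-0.14). *Gata3* had 436, 377 and 415 against 382, 353 and 281 (-0.28), *Eomes* an estimate of -0.18, and the keratins *Krt8* and *Krt18* of 0.06 and -0.13. KO library 3 had the lowest value of the 6 pools for *Cdx2*, *Gata3*, *Eomes*, *Krt8* and *Krt18*, and the lowest sum over the list. Without this library, the median was 0.02 and 16 of the 31 estimates were above 0. Without KO library 1, which also held *Lyz2* RNA, it was -0.29 with 6 above 0. *Krt7* and *Ly6a*, both lower in KO pools, were the 2 of 31 members whose pools did not overlap. Over all genes 5.95% did not overlap in either direction, and 3.09% were lower in this way. Primitive endoderm genes (23 of 28 tested, median -0.06) varied widely between pools. *Gata6*, which specifies the lineage, was at 145, 176 and 126 against 119, 140 and 164 (-0.07), *Pdgfra* had an estimate of 0.09, *Col4a1* of -0.13, *Gata4* of 0.42 and *Sox17* of 0.04. The lipoprotein gene *Apoe* (0.56) ranged from 39.5 in WT library 2 to 133 in KO library 1. The members with an unadjusted p under 0.05, *Srgn* (0.85) and *Amn* (-0.75), were at or below 3.68 in all pools. Without KO library 3 the median of the list was 0.08, with 16 of 23 estimates above 0 instead of 9.

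For most of the other lists the median was within 0.1 of 0. None of their members was called by limma, edgeR or DESeq2, which called 1, 1 and 3 of all genes tested. No list had more than 2 genes with an unadjusted p under 0.05 in limma. There were 2 of 31 trophectoderm, 2 of 23 primitive endoderm and 2 of 30 p53 and stress genes. The antiviral list had 1 of 11, the TRIM28 and imprinted lists had 1 of 40 each, and the other lists had none. These shares were above the 1.53% of all genes where a list had any such gene, and they were not tested. Medians were -0.09 for 26 cavity, junction and polarity genes (*Cldn7* -0.09, *Cldn4* -0.13, *F11r* -0.22, *Aqp8* -0.24), -0.03 for 22 Hippo pathway genes (*Wwtr1* -0.09, *Tead4* -0.04, *Amotl2* -0.25, *Wwc1* -0.21) and 0.01 for 23 FGF signalling genes (*Map2k2* -0.05, *Fgf10* 0.19, *Spry2* -0.19). They were 0.03 for 36 cell cycle genes (*Aurka* 0.01, *Ccna2* 0.06, *Cdk1* 0.24, *Cdc25c* -0.20), 0.01 for 22 genes of glycolysis and glucose uptake (*Aldoa* 0.08, *Slc2a3* -0.16, *Pfkl* -0.23, *Slc16a1* -0.19), 0.05 for 23 germline genes normally silenced by DNA methylation (*Tex19.1* 0.00, *Tex19.2* 0.08, *Rpl10l* 0.42, *Magea5* -0.61) and 0.06 for 11 antiviral and interferon genes. Of the latter the abundant *Trim25* (0.19), *Ifitm2* (0.07) and *Bst2* (-0.24) had overlapping pools. For 12 of 48 oocyte transcripts still measured the median was -0.03 (*Khdc3* 0.03, *Nlrp4f* -0.10), for 6 of 25 genes of the 2-cell stage -0.01 (*Pramel6* 0.01, *Pramel7* -0.06) and for 14 sex-linked genes -0.02. Leaving out 1 pool turned the sign of several of these medians. For the cavity list it was 0.02 without KO library 3 and 0.01 without WT library 3. The germline median was -0.14 without KO library 3, -0.19 without WT library 3 and 0.17 without WT library 2. Those of the Hippo, FGF, glycolysis, antiviral, imprinted, oocyte, 2-cell and sex-linked lists also took both signs, between -0.09 and 0.21. The 4 oviduct and uterine markers tested had a median of -0.31, and 0.08 without KO library 3 (*Wfdc2* -0.11, *Muc1* -0.27, *Msx1* -0.39, *Lif* -0.34). Of the 40 imprinted genes tested (median 0.01) *Slc38a4* had an estimate of -0.08 and *Mest* of -0.47. *Meg3*, a maternally expressed long non-coding RNA, had 5.02, 4.05 and 3.11 in WT and 6.51, 5.24 and 7.56 in KO pools (log2 fold change 0.56). It was among the 2 of 40 imprinted genes whose pools did not overlap, beside 5.95% of all genes.

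Genes of the p53 and stress response had the lowest median among lists with more than 4 members tested, -0.20 over 30 genes, with 20 estimates below 0. *Cdkn1a*, the cell cycle inhibitor induced by p53, was at 44.8, 94.5 and 24.8 in WT and 14.3, 27.0 and 56.3 in KO pools. *Eda2r*, a death-receptor gene, was at 8.59, 24.7 and 8.68 against 3.02, 4.49 and 11.6, and *Ccng1*, which encodes cyclin G1, at 165, 272 and 154 against 113, 130 and 163. WT library 2 was the highest pool for all 3, and the groups overlapped. Without WT library 2 the median of the list was 0.01, without KO library 1 it was -0.07, and without WT library 3 or KO library 3 it was -0.26 and -0.27. *Trp53* (0.08) and the chaperone gene *Hspa5* (-0.00) had estimates near 0, and *Trib3* (-0.61) and *Hspb1* (-0.76) had unadjusted p under 0.05.

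**Figure D3:**
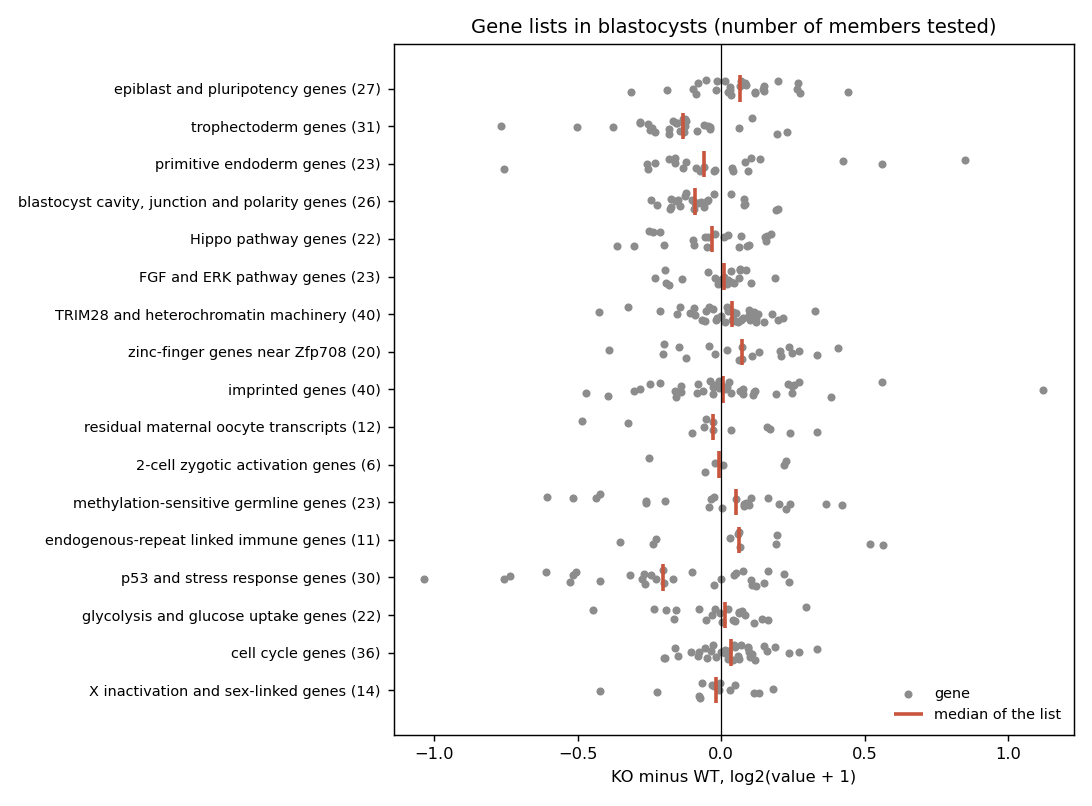
KO minus WT difference (horizontal, log2(value + 1)) of each tested member of 17 gene lists, one point per gene, with the median of each list as a red bar and the number of members tested in brackets. Medians lie between -0.20 (p53 and stress response) and 0.07, and few genes lie beyond 0.5 in either direction.

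The largest differences lay between pools of one genotype. The first principal component of the 6 libraries held 60.2% of their variance, against 13.5% for the second, and it did not separate the groups: scores were -8.51, 30.2 and -21.8 for WT pools and -27.7, 2.76 and 25.1 for KO pools. In order of score, KO library 1, WT library 3 and WT library 1 stood at the low end, and KO library 3 and WT library 2 at the high end. Except for WT library 1, the shallowest (12469548 reads in genes), depth fell along this order, from 17263228 in KO library 1 to 14961606 in WT library 2, and its part was not tested. The genes named next were chosen for this order, so their values are a description. High at the low end were *Elf5*, a trophoblast stem cell factor (14.6, 1.87 and 23 in WT, 19.3, 11.2 and 2.32 in KO pools), *Plac1*, a placental gene (17.1, 3.02 and 34.8, then 34.4, 10.7 and 4.8), and *Adh1*, an alcohol and retinol dehydrogenase gene (51.8, 9.84 and 74.4, then 138, 12.9 and 7.00). *Lama1*, which encodes a basement membrane laminin, ranged from 4.35 to 42.4 and *Ndrg1*, a hypoxia-responsive gene, from 49.5 to 552 over the pools. *Entpd1*, *S100a16*, *Efna1*, *Gm4926* and *BC051665* were high at the same end. High at the opposite end were *Ccne1*, which encodes cyclin E1 (70.2, 207 and 49.8, then 42.9, 99.0 and 152), *Parp8* (17.9, 57.2 and 13.3, then 6.03, 24.9 and 69.5), *Trim43b*, *Cdkn1a* and *Plk2*.

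**Figure D4:**
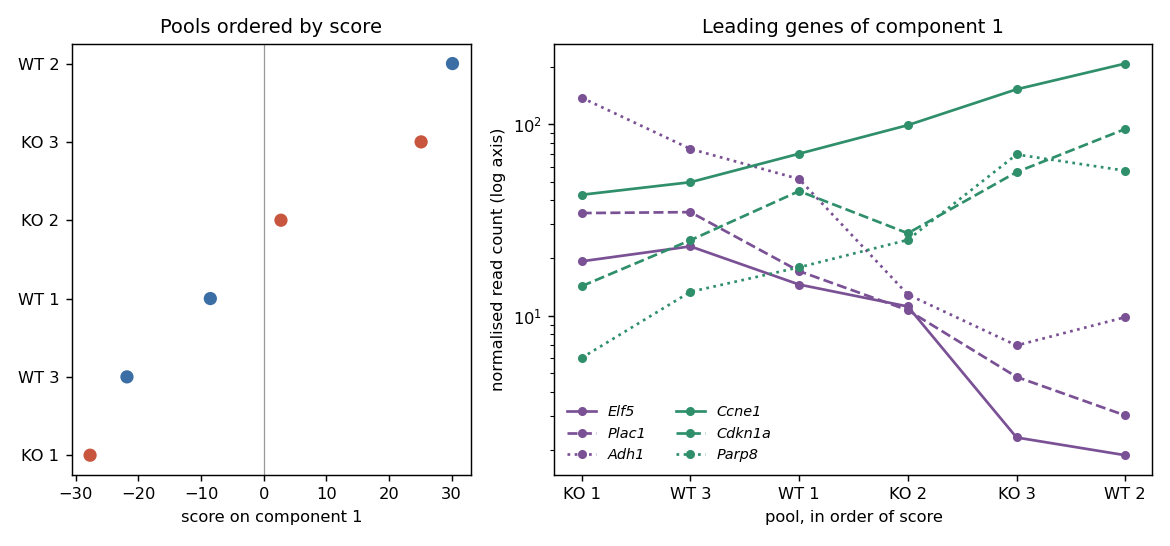
Left, scores of the 6 pools on the first principal component (blue WT, red KO), and right, normalised read count (log axis) of 6 of its leading genes with the pools in order of score. *Elf5*, *Plac1* and *Adh1* are lower and *Ccne1*, *Cdkn1a* and *Parp8* higher toward KO library 3 and WT library 2, and pools of both genotypes lie at each end.

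Levels in WT 2-cell embryos, which took no part in the component, were set against those in WT blastocysts, which did. The share of genes higher in 2-cell embryos was below that of all genes at the low end. For the 200 genes of the high end it was near that of all genes. Of the 200 genes (mean of at least 10) most strongly tied to the low end, 34 (17.0%) had a higher mean in WT 2-cell embryos than in WT blastocysts, against 74 of 200 (37.0%) at the high end and 36.9% of all 7993 genes. Among the 15 leading genes the counts were 2 and 11. *Trim43b* was at 168 and *Uchl1*, a ubiquitin hydrolase gene, at 385 in WT 2-cell embryos, against 30.1 and 34.9 in WT blastocysts. *Elf5* was at 0 in the 2-cell embryos. On the low side of the component lay 53.2% of all genes, 22 of 26 of the cavity and junction list, 16 of 20 zinc-finger genes near *Zfp708*, 8 of 11 antiviral genes, 22 of 31 trophectoderm genes and all 4 oviduct and uterine markers. The lists with the fewest genes on that side were p53 and stress (6 of 30), germline (7 of 23) and Hippo (7 of 22). Across the pools, 525 genes (6.57% of those with a mean of at least 10) spanned at least 2-fold, and 65 at least 4-fold, between pools of one genotype.

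Some genes varied widely between pools, most of them in an order of their own. *Noxo1*, which encodes an organiser of NADPH oxidase 1, was at 185, 0.845 and 4.77 in WT and 1.11, 145 and 28.9 in KO pools. *Zrsr1*, an imprinted splicing factor gene expressed from the paternal allele, ran from 42.3 in WT library 3 to 1083 in KO library 1, with 253, 356, 502 and 73.2 in WT libraries 1 and 2 and KO libraries 2 and 3. *Dgke*, a diacylglycerol kinase gene named here after its values were seen, was at 180 in WT library 1 and 15.3 to 20.05 in the remaining pools. The antigen-presentation gene *Cd74*, among the leading genes at the high end of the component, was at 74.2 in KO library 3 and at most 8.51 elsewhere. Sex-linked genes differed in KO library 1. *Xist*, the RNA of the inactive X chromosome, was at 251 there and at 86.4 to 138 in the remaining pools, while the Y-linked *Ddx3y*, *Eif2s3y*, *Uty* and *Kdm5d* were lowest there (23.9, 14.9, 6.45 and 1.69). All 6 pools held RNA of both *Xist* and Y-linked genes.

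The study examined the genes neighbouring all ZFP708-bound RMER19B retrotransposons and reported no significant deregulation among them in blastocysts. Only *Uck2*, *Fmnl2* and *Lgi2*, at the elements it chose for DNA methylation analysis, are followed here, so they do not stand for that whole set. *Uck2*, the uridine-cytidine kinase gene with such an element in its first intron, had 172, 217 and 169 in WT and 162, 189 and 200 in KO pools, which overlapped (log2 fold change -0.01, 95% interval -0.32 to 0.29). *Fmnl2*, a formin gene of the actin cytoskeleton, had 85.3, 53.9 and 99.5 against 101, 64.5 and 52.9, again with overlap (-0.13, -0.79 to 0.52). *Lgi2* was listed at 0 in all 6 pools.

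The KO effect in blastocysts was set against that in mESCs by an interaction term in limma over the 12 libraries, and 215 of 12975 genes were called (1.66%). The 2 materials differ in more than stage, since blastocyst KO embryos keep a wild-type paternal allele and the mESC lines do not. In the mESCs, WT libraries 1 and 3 (chi-square per gene 3.28) and KO libraries 2 and 3 (1.72) were closer to each other than the other pairs of their groups (at least 34.8 and 11). With each such pair averaged, 24 genes were called. The estimates of *Abcb1b*, named for its call in blastocysts, had opposite signs: its level was 18.1 ± 0.318 in WT and 35.7 ± 7.54 in KO mESCs (SD, n = 3 each), and the difference of effects was -2.11 (-2.57 to -1.65, adjusted p = 0.000673 in limma, 0.000938 in edgeR, 0.0146 with averaged libraries). For *Wdfy1* the difference was not called (0.77, adjusted p = 0.649 in limma). It moved to 0.24 without WT mESC library 1 and to 1.48 without WT mESC library 3, and the adjusted p ran from 0.0739 to 0.919 with a library left out. For *Uck2* (-0.06) and *Fmnl2* (-0.45) it was not called either.

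Levels at other stages gave the context of the called genes; oocytes, zygotes and 2-cell embryos were sequenced singly and blastocysts in pools, so levels are set side by side only. *Wdfy1* was at 8.24 ± 2.10 in WT and 17.2 ± 4.76 in KO GV oocytes, 9.81 ± 3.45 and 10.9 ± 4.31 in zygotes (SD, n = 7 each), and 3.98 ± 2.38 (n = 7) and 22.3 ± 17.2 (n = 8) in 2-cell embryos. WT and KO oocytes did not overlap, at most 10.7 and at least 12.6, while zygotes and 2-cell embryos of the genotypes overlapped. These differences were not tested, and the share of all genes without overlap in oocytes was not counted. In mESCs *Wdfy1* varied widely, from 9.01 to 54.5 in WT and from 34.5 to 59.7 in KO. *Abcb1b* was at 139 ± 26 in WT oocytes and 11.8 ± 1.13 in WT blastocysts. *Eps8l2* was highest in WT blastocysts, at 26.1 ± 4.68, against 13.6 ± 3.39 in WT oocytes, 0.586 ± 1.06 in WT 2-cell embryos and 7.50 ± 4.63 in WT mESCs.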

How the data were processed

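The deposited signal values are normalised read counts: the authors used STAR 2.4.2a on mm9, took gene totals from htseq-count with the reverse strand setting, and divided these totals by DESeq2 size factors over all 61 libraries. The library kit of the blastocyst pools is not given in the sources used here, so the part of antisense reads is unknown. Values were whole multiples of 1 read (100% within 0.01), and the recovered reads were used for edgeR and DESeq2. log2(value + 1) was fitted with limma (trend, robust), two-sided, with Benjamini-Hochberg adjustment over 11295 genes; differences understate those of genes with few reads. Fold changes are KO minus WT. Many genes were named by rule: those called by any tool, those with the smallest p in each direction, and the most abundant and most different of each list. Lineage genes, sex-linked genes and the most variable genes were also named by rule. Others were added by hand, among them *Trim28*, *Setdb1*, *Dnmt1* and *Trp53*. *Utf1*, *Meg3*, *Trib3*, *Hspb1*, *Srgn*, *Amn*, *Oat*, *Rpph1* and *Mir295* were added by hand for their values in these data. The comparison and the lists were chosen with earlier results of these data known. Methods were tested on simulated data in which each gene varied on its own, without the shared first component of these pools. Alternatives were other pseudocounts, filters, scalings, weights, tools, a replicate block and each library left out. R 4.3.3 ran limma 3.58.1, edgeR 4.0.16 and DESeq2 1.42.0; figures came from matplotlib 3.10.9 under Python 3.11.15.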

Additional observations from a re-analysis of the deposited data

Results flagged for a closer look

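The effect of the knockout differed between blastocysts and mESCs for *Abcb1b*. The difference of the log2 fold changes, blastocysts minus mESCs, was -2.11 (adjusted p = 0.000673 from limma), and over the 18 alternatives the adjusted p ran from 0.000629 to 0.0146. *Abcb1b* was named because DESeq2 called it lower in the same KO blastocysts, so 1 of the 2 effects compared is the one it was chosen for.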

How the results depend on the processing

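The call of *Wdfy1* was the one result of the blastocyst comparison, and its estimate stayed between 1.32 and 1.52 under every alternative run. No gene was called without a filter (0, adjusted p = 0.0890 for *Wdfy1* in limma), without the trend and robust options (0, 0.135), in a fit over all 12 groups (0, above 0.99) and with each library left out in turn (0 to 0 genes). Sample weights called 4 genes (with *Abcb1b*, *Eps8l2* and *Mir295*), DESeq2 3, and the first within-group component as a covariate, chosen after seeing the data, 7 (*Abcb1b*, *Cdkn1a*, *Eps8l2*, *Mt1*, *Oat*, *Rpph1* and *Wdfy1*), of which 2 are members of the lists. The other alternatives, except the replicate block, called *Wdfy1* alone. The share of genes with an interval within 2-fold was 92.0%, and 56.6% in the fit over all groups, which takes in the spread of single embryos. The same replicate numbers did not pair the pools (correlations of deviations 0.30, 0.13 and -0.60), and with the replicate block 0 genes were called (*Wdfy1* adjusted p = 0.691 in limma). The count of genes whose effect differed between blastocysts and mESCs moved from 215 to 116 and 345 with a pseudocount of 0.1 and 5, to 142 with a filter at 10, to 113 with edgeR, to 24 with near-identical mESC libraries averaged, and to 80 to 666 with a library left out; it was 666 without WT mESC library 2 and 90 without KO blastocyst library 2. The causes were not tested. With 3 pools against 3, the interval of a gene lay within 1.5-fold for 63.5% of genes.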

Other observations

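With the first within-group component as a covariate, chosen after seeing the data, *Cdkn1a* (log2 fold change -0.73), *Oat* (-0.59) and *Rpph1* (-1.57), none of them called without it, passed the threshold along with *Mt1* (-0.48). *Oat*, which encodes ornithine aminotransferase, was at 104, 84.7 and 117 in WT and 90.3, 58.7 and 56.0 in KO pools, and the groups overlapped. *Rpph1*, the RNA subunit of RNase P, was at 29.9, 6.82 and 24.2 against 7.14, 6.05 and 3.09. *Mir295*, a microRNA gene of a cluster active in pluripotent cells, was called with sample weights only, and was at 2.4, 1.21 and 2.36 in WT and 0.688, 0.270 and 0.386 in KO pools.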
